A study of Mus musculus with 36 samples.

Results

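The first 2 h of the response of mouse multipotent progenitors to transforming growth factor-β1 were described on 6 of the 36 arrays of the series, 3 from untreated cells and 3 from cells that had been given TGF-β1 for 2 h. These arrays were chosen by their labels and not by any measured value, though with earlier results of these data known. Multipotent progenitors (MPP) can form all blood lineages. They were grown from mouse bone marrow in vitro with a cytokine cocktail and sorted by FACS, so they are cultured cells and not cells taken straight from the marrow. The treated cells received 10 ng/ml recombinant human TGF-β1 after the sort. The untreated cells shared the marrow source, the culture and the sort, and neither the strain, age and sex of the mice nor any genetic change is given in the sources used here. The other arrays cover MPP at 4, 8, 12 and 24 h and common dendritic progenitors (CDP), which form dendritic cells alone, at the same 6 times. No untreated cells kept for 2 h were measured, so what TGF-β1 did and what 2 h in culture did cannot be told apart.

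TGF-β1 binds a pair of receptor kinases at the cell surface. These phosphorylate Smad2 and Smad3, which join Smad4, enter the nucleus and switch genes on or off. Among the known early targets are genes that shut the pathway down again, namely the inhibitory Smads, the corepressors Ski and SnoN, and membrane proteins that hold Smads away from the receptor. In blood formation TGF-β is known for holding early progenitors back from division and for guiding dendritic progenitors towards Langerhans cells.

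RNA was measured on Affymetrix Mouse Gene 1.0 ST arrays as log2 intensity per probe set. A level below is such a log2 intensity and a change is the difference of the mean levels, 2 h minus 0 h. Arrays of 1 group correlated at 0.995 to 0.998, and the median SD of a gene was 0.0645 at 0 h and 0.0772 at 2 h. The third untreated array stood apart. Its mean level over 21 interferon-stimulated genes was 9.12 against 8.24 and 8.22 on the other 2 untreated arrays, and over 17 NF-κB targets it was 10.23 against 9.36 and 9.50. The label was checked against markers at 0 h: Kit, the stem cell factor receptor, lay at 11.20 to 11.40 in MPP and at 8.40 to 8.86 in CDP, and Cd34 at 13.08 to 13.14 and 11.98 to 12.17, while Flt3 was the lower one in MPP (9.69 to 10.75 against 12.28 to 12.42). Cd48, another marker used to define MPP, was also lower in MPP (11.04 to 11.20 against 11.50 to 11.64). Csf1r, a marker used to define CDP, was as bright in MPP (12.51 to 12.79) as in CDP (12.67 to 12.98). Xist lay at 6.96 and 7.02 on the arrays of replicate 1 and at 12.81 to 13.65 on those of replicates 2 and 3, so the replicates differed in this transcript at both times.

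Calls required an adjusted p below 0.01 (limma, Benjamini-Hochberg) together with a log2 change of 1 or more in size, that is 2-fold. For MPP the fit held all 18 MPP arrays, so each SE and p rests on the spread pooled over all times. Of 19938 genes, 54 were called at 2 h (0.271%). 45 rose (0.226%) and 9 fell (0.0451%). The rises were between 2 and 11.8-fold, and 11 of them reached 1.5 on the log2 scale. At any fold, 451 genes were higher (2.26%) and 200 lower (1%) at an adjusted p below 0.01, so the first 2 h held more rises than falls at both thresholds. The counts at any fold were 70 and 21 with only these 6 arrays in the fit, 216 and 49 without the replicate number as a block and 157 and 28 without replicate 1, and the shares at any fold given below are those of the fit with 451 and 200. The bulk of genes moved little, with a median change of 0.02 and the central range from the 5th to the 95th percentile between -0.18 and 0.21. Each of the 54 genes had the same sign in all 3 pairs of arrays with the same number, and for none of them did the levels at 0 h and at 2 h overlap. The genes were called on these same arrays, so nothing further is read from this. Uncalled genes such as Wwp2 (0.17 ± 0.05) also had separate levels, and the share over all genes is not given here. Without the third untreated array 47 genes were called, 40 higher and 7 lower, and 42 of the 54 kept their call.

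**Figure D1:**
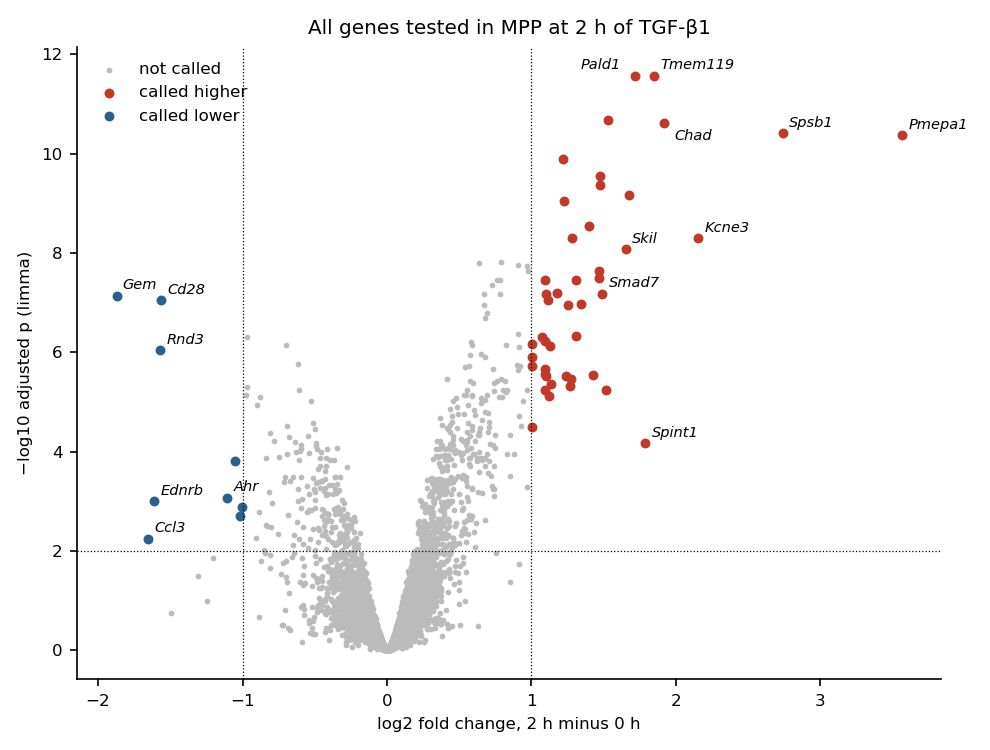
Each point is 1 of 19938 genes in MPP. The x axis is the log2 fold change (2 h minus 0 h), the y axis is −log10 of the adjusted p from limma, and dotted lines mark the thresholds. The 45 genes called higher (red) reach 3.56 (Pmepa1), and the 9 called lower (blue) reach -1.87 (Gem).

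The largest rise was that of Pmepa1, a transmembrane protein that binds Smads and limits their signal. Its level was 8.11, 7.18 and 7.48 on the untreated arrays and 11.24, 10.93 and 11.30 at 2 h. Every treated array was far above every untreated one. The rise was 3.56 ± 0.12 (limma SE, n = 3 and 3 for the means), 11.8-fold, with an adjusted p of 4.3e-11. That SE, like each ± on an MPP change, comes from the fit to all 18 MPP arrays. It is not the spread of the 0 h and 2 h arrays alone. Within same-numbered pairs the rise of Pmepa1 ran from 3.12 to 3.82. Spsb1, a SOCS box adaptor of a ubiquitin ligase known to act on the type II TGF-β receptor, was at 8.68, 8.97 and 8.45 and then at 11.38, 11.57 and 11.39. Its 3 treated arrays lay close together and far above the untreated ones, and the rise was 2.74 ± 0.09 (adjusted p = 3.81e-11).

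Kcne3, a subunit of potassium channels, rose from 6.94, 7.34 and 7.21 to 9.41, 9.13 and 9.42 (2.16 ± 0.11, adjusted p = 5.01e-09). Chad, the cartilage matrix protein chondroadherin, rose from 7.30, 6.92 and 7.22 to 9.24, 8.84 and 9.11 (1.92 ± 0.06, adjusted p = 2.42e-11). In both genes the second array was the lowest at 2 h. Spint1, an inhibitor of membrane serine proteases, was less even. It lay at 9.05, 10.15 and 9.09 and then at 11.46, 11.15 and 11.04, so that the second untreated array was well above the others and still below every treated array. Its rise was 1.79 ± 0.22 (adjusted p = 6.76e-05), with the largest SE among the rises.

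The sequences around the starts of Spsb1, Kcne3 and Chad are shown because these were the largest rises with a RefSeq promoter of the mouse build GRCm38.p6 in hand. Each runs from 250 bases before the annotated start to 50 bases from it on, 5′ to 3′ on the gene's strand. Capitals mark matches, on either strand, to the 5-letter Smad motif CAGAC, the GC-rich Smad motif GGCGCC, the AP-1 motif TGANTCA and the GC box GGGCGG. Spsb1 lies at chr4:149954957-149955256 (minus strand), Kcne3 has starts at chr7:100176420-100176719 and chr7:100178433-100178732 (plus strand), and Chad lies at chr11:94564797-94565096 (plus strand).
Spsb1: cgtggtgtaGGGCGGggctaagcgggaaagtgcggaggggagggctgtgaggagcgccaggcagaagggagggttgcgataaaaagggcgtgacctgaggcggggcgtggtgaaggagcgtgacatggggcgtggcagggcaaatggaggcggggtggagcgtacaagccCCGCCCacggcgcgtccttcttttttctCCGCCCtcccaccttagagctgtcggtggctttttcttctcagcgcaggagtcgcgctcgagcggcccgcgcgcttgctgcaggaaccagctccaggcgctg
Kcne3, first start: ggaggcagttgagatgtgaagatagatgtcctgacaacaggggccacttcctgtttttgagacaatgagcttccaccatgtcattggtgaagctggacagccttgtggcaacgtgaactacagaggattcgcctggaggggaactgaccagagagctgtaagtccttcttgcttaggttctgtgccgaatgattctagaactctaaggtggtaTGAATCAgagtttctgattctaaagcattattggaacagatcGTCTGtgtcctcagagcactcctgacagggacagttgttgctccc
Kcne3, second start: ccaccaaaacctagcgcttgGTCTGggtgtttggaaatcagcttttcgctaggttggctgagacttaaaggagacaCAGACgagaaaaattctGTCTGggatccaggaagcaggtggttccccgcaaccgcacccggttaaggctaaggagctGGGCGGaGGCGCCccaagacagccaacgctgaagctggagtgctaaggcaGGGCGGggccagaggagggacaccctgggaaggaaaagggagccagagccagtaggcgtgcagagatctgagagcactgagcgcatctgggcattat
Chad: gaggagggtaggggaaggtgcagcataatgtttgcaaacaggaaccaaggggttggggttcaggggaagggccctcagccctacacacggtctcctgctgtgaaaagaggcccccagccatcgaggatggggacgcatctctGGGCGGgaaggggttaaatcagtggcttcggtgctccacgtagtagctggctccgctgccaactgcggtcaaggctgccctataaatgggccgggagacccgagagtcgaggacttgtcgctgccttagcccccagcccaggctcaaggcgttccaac
The second start of Kcne3 held 3 matches to CAGAC at -230, -174 and -157 from the start, 1 to GGCGCC at -90 and 2 GC boxes at -97 and -47. The first start of the gene held an AP-1 match at -37 and a CAGAC match at 6. In Spsb1 only GC boxes matched, at -241, -80 and -52, and in Chad only 1 GC box, at -108. The Smad palindrome GTCTAGAC, also searched, matched none of the 4.

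Over the promoters of all called genes, 35 of the 45 risers (48 start sites) and 5 of the 9 fallers (5 start sites) had an entry. CAGAC was present in 58.3% of the promoters of risers, in 5 of 5 of fallers and in 49.6% of all 32851 promoters of this length. TGANTCA was present in 14.6% of the risers' promoters against 7.81% of all, GGCGCC in 18.8% against 11.9% and GGGCGG in 60.4% against 35.7%. Of the 5 promoters of fallers 0 held TGANTCA, 0 held GGCGCC and 1 held GGGCGG. GTCTAGAC was in none of the called genes' promoters and in 0.213% of all. All motifs but CAGAC and the GC box read the same on both strands, and a GC box can overlap the GC-rich Smad motif where they adjoin. These shares are descriptions of letters in a short window and were given no test, and base composition was not matched.

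Genes that are known to restrain TGF-β signalling were among the rises. Of 24 measured members of 3 lists (inhibitory Smads with their ubiquitin ligases, nuclear corepressors, membrane dampers) 5 rose, 0 fell and 19 were not called, against 0.226% of all genes called higher. At any fold 10 of the 24 were higher and 0 lower at an adjusted p below 0.01, beside 2.26% and 1% of all genes. Their median change was 0.14 against 0.02 over all genes, so most members stayed near their starting level. The lists were drawn up with earlier results of these data known.

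Smad7, which occupies the activated receptor and brings ubiquitin ligases to it, rose from 8.81, 8.92 and 8.77 to 10.12, 10.33 and 10.53 (1.49 ± 0.09, adjusted p = 6.61e-08). Smad6, the inhibitory Smad better known for blocking BMP signals, went from a mean of 8.15 to 9.05. Its change of 0.90 ± 0.07 passed the p threshold and not the fold threshold. The ubiquitin ligases Smurf1 and Smurf2, partners of Smad7, were higher by 0.32 ± 0.06 and 0.35 ± 0.05 at adjusted p-values of 0.0037 and 0.00013. Wwp1, a ligase of the same family, had a change of -0.27 ± 0.08 that passed no threshold.

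Skil, which encodes the corepressor SnoN, rose from 9.16, 9.25 and 9.32 to 10.91, 11.06 and 10.71 (1.65 ± 0.09, adjusted p = 8.3e-09). Ski, its paralogue, rose from 9.89, 10.11 and 9.93 to 11.38, 11.40 and 11.58 (1.48 ± 0.06, adjusted p = 4.37e-10). The SDs within each group were small beside both rises. Tgif1, a homeobox corepressor of Smads, was higher by 0.44 ± 0.05 (adjusted p = 1.4e-05) and its relative Tgif2 by 0.11 ± 0.06 (adjusted p = 0.33). Among membrane proteins Ldlrad4, which like Pmepa1 binds Smad2 and Smad3, rose from 9.90, 9.75 and 9.52 to 11.46, 11.22 and 11.08 (1.53 ± 0.05). The pseudoreceptor Bambi, which blocks receptor complexes, had a change of 0.03 ± 0.07. None of 13 secreted antagonists of TGF-β and BMP was called, and the largest change among them was 0.24 ± 0.05 for follistatin (Fst).

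**Figure D2:**
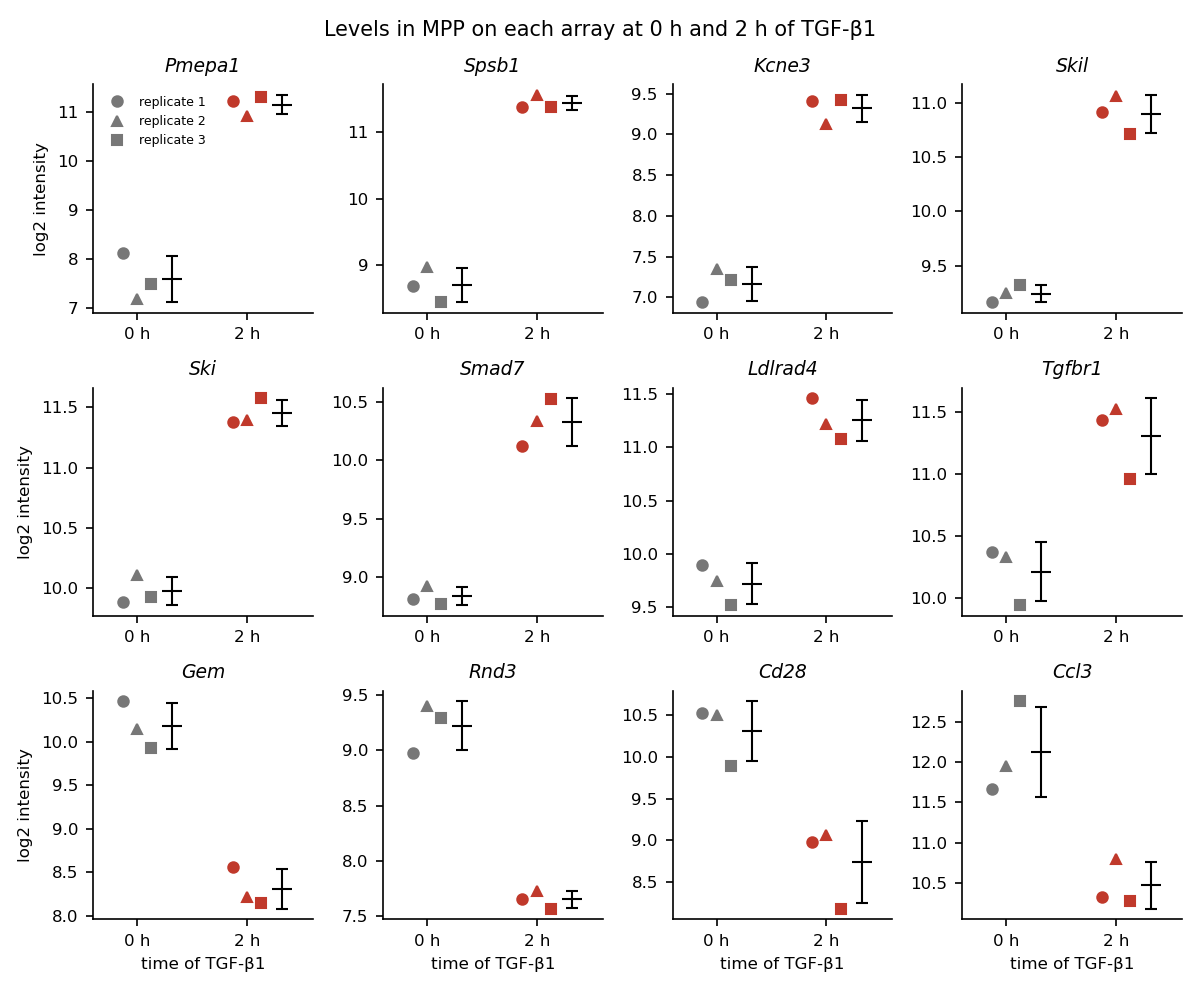
Log2 intensity (y axis) of 12 genes on each MPP array at 0 h (grey) and 2 h (red) of TGF-β1. The symbol gives the replicate number, and the bar beside each group is its mean ± SD over 3 arrays. In every panel the 2 groups are separate, in genes that were called on these same arrays. The y axes differ between panels and do not start at 0.

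Of 14 receptors of the TGF-β superfamily 1 rose (0.226% of all genes did). Tgfbr1, the type I receptor kinase, was at 10.37, 10.33 and 9.94 untreated and at 11.44, 11.52 and 10.96 at 2 h (1.09 ± 0.07, adjusted p = 3.43e-08). Replicate 3 was the lowest at both times, and the change within pairs was alike. Its partner Tgfbr2, the type II receptor, changed by 0.25 ± 0.06 (adjusted p = 0.019). The activin receptor kinase Acvr1 was higher by 0.34 ± 0.04 at an adjusted p of 8.9e-05.

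The Smads that carry the signal had small changes on this scale. None of 17 transducers and adaptors passed either threshold, and their changes ran from -0.18 to 0.13. Smad2 changed by -0.09 ± 0.05, Smad3 by 0.11 ± 0.08 and Smad4 by 0.04 ± 0.05. RNA levels say nothing of phosphorylation, which carries the signal in these proteins.

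None of 25 ligands and activators was called. At a smaller fold 2 were higher and 3 lower past the p threshold, beside 2.26% and 1% of all genes. Furin, the protease that cuts the TGF-β precursor, was higher by 0.51 ± 0.06 and Itgav, the integrin chain that frees latent TGF-β, by 0.48 ± 0.05. Inhba, a subunit of activin, was lower by 0.50 ± 0.08, Thbs1, thrombospondin 1, by 0.36 ± 0.05 and Nrros, which holds latent TGF-β on myeloid cells, by 0.34 ± 0.06. Tgfb1 itself, bright at 12.8 at 0 h, changed by 0.22. Over the 7 lists of the pathway, 6 of 93 genes rose and 0 fell, against 0.226% and 0.0451% of all genes, with a median change of 0.03.

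**Figure D3:**
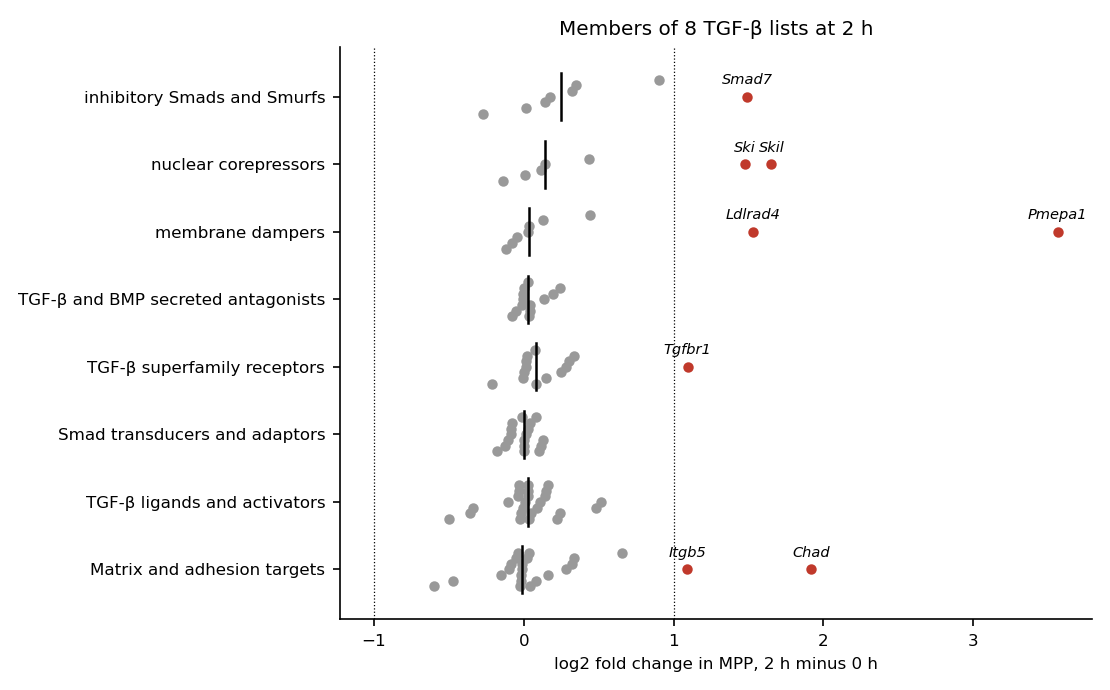
Log2 fold change in MPP (x axis, 2 h minus 0 h) of each measured member of 8 lists (y axis). Red points are called higher, grey points are not called, the vertical bar is the median of the list and dotted lines mark 2-fold. The medians lie between -0.01 and 0.25, with the called genes apart from the rest of their lists. The height of points within a row has no meaning.

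Of 23 matrix and adhesion genes often named as TGF-β targets, 2 rose beside 0.226% of all genes, Chad (above) and the integrin subunit Itgb5. Itgb5 went from 11.44, 11.41 and 10.89 to 12.38, 12.30 and 12.35 (1.09 ± 0.10). The third untreated array was the lowest, and without it the change was 0.90, under the fold threshold. Itga5, the fibronectin receptor chain, was higher by 0.66 ± 0.07 and Tgfbi by 0.32 ± 0.06 at adjusted p-values below 0.01. The usual fibroblast targets were near their starting level, with -0.10 for Col1a1, -0.01 for Ccn2 (connective tissue growth factor) and -0.02 for Acta2 (smooth muscle actin).

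None of the transcription factor lists held a called rise. Of 24 immediate early factors 0 were called, and their changes ran from -0.23 to 0.42. Egr1 was at 7.85, 8.23 and 8.58 and then at 8.08, 8.30 and 8.47, which is an overlap, with a change of 0.06. Junb changed by 0.10 and Atf3 by 0.40. Of 13 Id and Hes/Hey repressors 0 were called, and Bhlhe40, a repressor of the clock family, came nearest at 0.74 ± 0.10 (adjusted p = 0.0002). Id1 changed by 0.37, Id2, which Langerhans cells need, by -0.06, and Id3 by -0.20. Among 15 Klf factors 0 were called. Klf10, also named TGF-β inducible early gene, was higher by 0.39 ± 0.06, and Klf4, Klf6 and Klf7 were lower by 0.43 to 0.62, all at adjusted p-values below 0.01.

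Of 44 transcription factors of blood formation 1 was called, Ahr, beside 0.271% of all genes. The aryl hydrocarbon receptor Ahr, a ligand-activated factor that Langerhans cells also express, fell from 9.36, 9.82 and 8.58 to 8.08, 8.19 and 8.17 (-1.11 ± 0.18, adjusted p = 0.000841). The treated arrays were close together and the untreated ones were not. Without the second untreated array the change was -0.83, under the fold threshold, without replicate 1 at both times the adjusted p was 0.0891 and without replicate 2 it was 0.0304. At smaller folds 5 factors of the list were higher and 5 lower at an adjusted p below 0.01, Ahr included, beside 2.26% and 1% of all genes. Picked after their values were seen, Runx3 (0.70 ± 0.07), which Langerhans cells need, had the largest change of the higher ones, Irf8, a factor of dendritic cell development, was higher by 0.54 ± 0.05, and Zeb2 (-0.90 ± 0.09) lay just under the fold threshold on the other side.

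Signal modulators of G proteins and small GTPases moved in both directions. Of 23 members 3 rose and 2 fell, against 0.226% and 0.0451% of all genes. Rgs1 rose from 8.03, 7.98 and 7.76 to 9.27, 9.14 and 8.74 (1.13 ± 0.09), and Rgs16 from 7.89, 8.01 and 8.24 to 9.05, 9.07 and 9.39 (1.12 ± 0.11). Both speed up the switching off of Gα subunits. Gna15, a Gα subunit of blood cells, rose from 10.68, 10.64 and 10.63 to 11.58, 11.67 and 12.00 (1.10 ± 0.07), and without replicate 3 at both times the change was 0.96.

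The falls of the same list were those of Gem and Rnd3. Gem, a GTPase of the RGK family that acts on calcium channels and the cytoskeleton, fell from 10.46, 10.15 and 9.93 to 8.57, 8.21 and 8.15 (-1.87 ± 0.12, adjusted p = 7.23e-08). Rnd3, which opposes RhoA, fell from 8.98, 9.40 and 9.29 to 7.66, 7.73 and 7.57 (-1.57 ± 0.13, adjusted p = 9.15e-07). These 2 were the only falls that kept their call under each of the 18 alternative settings tried. Cd28, a costimulatory receptor best known from T cells, fell from 10.53, 10.50 and 9.89 to 8.98, 9.06 and 8.18 (-1.56 ± 0.10, adjusted p = 8.99e-08). Here replicate 3 was low at both times, and without the replicate block the adjusted p was 0.0151.

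Ednrb and Ccl3 varied widely between the untreated arrays. Ednrb, the endothelin B receptor, was at 9.44, 9.80 and 8.02 and then at 7.32, 7.79 and 7.33 (-1.61 ± 0.26, adjusted p = 0.000985). The lowest untreated array was only a little above the highest treated one. Without replicate 1 at both times the adjusted p was 0.113 and without replicate 2 it was 0.0347. The chemokine Ccl3 was at 11.67, 11.95 and 12.75 and then at 10.33, 10.80 and 10.28 (-1.65 ± 0.33, adjusted p = 0.00566). Its highest level was on the untreated array with the high interferon and NF-κB levels. Without that array the fall was -1.20 with an adjusted p of 0.0287, and the call was also lost without each of the 3 treated arrays (adjusted p 0.0214 to 0.0334) and without the replicate block (0.0223).

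Gpr65, a receptor that senses protons, fell from 10.01, 10.08 and 10.58 to 9.19, 9.28 and 9.06 (-1.05 ± 0.14). Il1f9, the interleukin 36γ gene under its older symbol, fell from 9.05, 9.63 and 10.33 to 8.09, 8.86 and 9.01 (-1.02 ± 0.18), and Plod2, a lysyl hydroxylase of collagen, from 8.99, 8.98 and 8.69 to 8.10, 8.07 and 7.48 (it fell by 1.00 ± 0.17). All 3 lay just past the fold threshold. Gpr65 and Il1f9 were highest on the third untreated array. Without it the falls were -0.84, -0.82 and -0.82, and Il1f9 and Plod2 also lost their call without the replicate block (adjusted p 0.243 and 0.242). Just outside the threshold on this side lay Tlr4 and Arhgef37 at -0.97 each and Il15 at -0.97.

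A further group of rises encoded receptors and surface proteins. P2ry6, a receptor for UDP, rose from 9.88, 10.20 and 9.80 to 11.45, 11.72 and 11.74 (1.68 ± 0.07, adjusted p = 6.78e-10). Tmem119, a membrane protein known as a marker of microglia, rose from 9.58, 9.48 and 9.38 to 11.49, 11.22 and 11.29 (1.85 ± 0.05, adjusted p = 2.7e-12). The groups of arrays were narrow, and with Pald1, which encodes the phosphatase-like protein paladin (1.72 ± 0.05), Tmem119 had the lowest adjusted p of all genes. The cytokine receptor Il21r rose from 9.12, 9.39 and 8.83 to 10.35, 10.51 and 10.76 (1.43 ± 0.13). Another cytokine receptor, Il17ra, went from 10.74, 10.82 and 10.50 to 11.54, 11.66 and 11.86 (1.00 ± 0.09). Il17ra lay at the threshold, and without the third untreated array its change was 0.85.

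Nt5e (CD73), which makes adenosine from AMP, rose from 8.65, 8.71 and 8.35 to 10.12, 10.07 and 9.56 (1.35 ± 0.09). Havcr2 (Tim-3), an inhibitory receptor of T cells and dendritic cells, rose from 7.33, 7.52 and 6.94 to 8.51, 8.60 and 8.60 (1.31 ± 0.10). In both genes every treated array was above every untreated one. The junction protein F11r rose from 9.51, 9.97 and 9.02 to 10.63, 10.86 and 10.73 (1.24 ± 0.11). The thrombin receptor F2r rose from 8.23, 8.19 and 8.22 to 9.55, 9.27 and 9.36 (1.17 ± 0.07). The untreated arrays of F11r spread widely and those of F2r hardly at all. Tfr2, a transferrin receptor that senses iron, went from 8.13, 7.95 and 8.10 to 9.12, 8.89 and 9.46 (1.10 ± 0.08), and without the third treated array the change was 0.98. C5ar2, a receptor for complement C5a, rose by 1.01 ± 0.11. It had changes of 0.85 to 0.99 without array 1 or array 3 of either group.

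Other rises encoded adaptors and enzymes. Lax1, an adaptor that damps antigen receptor signals, rose from 7.32, 7.16 and 7.01 to 8.66, 8.62 and 8.60 (1.46 ± 0.08, adjusted p = 2.3e-08). The kinases Plk3, of the stress response, and Sgk1, of salt and growth factor signals, rose by 1.40 ± 0.07 and 1.14 ± 0.11. Tent5c, a poly(A) polymerase, rose by 1.47 ± 0.09, and the deubiquitinase Usp2 by 1.22 ± 0.05. Plk3 was the most even of these at 0 h, with 8.32, 8.33 and 8.31 at 0 h and 9.59, 9.69 and 9.88 at 2 h. Tent5c stood at 7.77, 8.02 and 7.73 and then at 9.15, 9.40 and 9.38, and Sgk1 at 8.38, 8.51 and 8.76 and then at 9.49, 9.78 and 9.80.

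Of the remaining rises several encode proteins of the cytoskeleton, membranes and small GTPases. Emp1, an epithelial membrane protein, rose from 8.81, 9.36 and 8.70 to 10.29, 10.56 and 10.57 (1.52 ± 0.14). Luzp1, a leucine zipper protein of the actin cytoskeleton, rose from 9.01, 8.89 and 8.76 to 10.44, 10.45 and 10.21 (1.48 ± 0.06). The treated arrays of both were within a narrow range, while the second untreated array of Emp1 was above the others. Sipa1l2, a Rap GTPase activator, rose from 8.30, 8.52 and 8.07 to 9.52, 9.61 and 9.68 (1.31 ± 0.08). Adap2, an Arf GTPase activator, rose from 8.14, 8.45 and 8.54 to 9.23, 9.62 and 9.62 (1.12 ± 0.07). Replicate 1 of Adap2 was the lowest at both times. Rhov rose from 7.37, 7.68 and 7.46 to 8.23, 8.68 and 8.92 (1.10 ± 0.10), Fhod1, a formin that builds actin filaments, by 1.00 ± 0.08, and Tbc1d9, of a family of Rab GTPase activators, by 1.27 ± 0.12.

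Extl3, a glycosyltransferase of heparan sulfate, rose from 10.28, 10.47 and 10.26 to 11.58, 11.55 and 11.72 (1.28 ± 0.06). Golm1, a Golgi membrane protein, rose from 9.93, 9.79 and 9.57 to 11.13, 10.93 and 10.90 (1.23 ± 0.05). Vdr, the nuclear receptor for vitamin D, went from 9.65, 9.50 and 9.10 to 10.57, 10.38 and 10.56 (1.09 ± 0.09). The third untreated array was the lowest, and without it the change in Vdr was 0.91. Smpd5, a sphingomyelinase, rose by 1.26 ± 0.08, Niban2 by 1.10 ± 0.10, Lhfpl2 by 1.07 ± 0.08 and the ubiquitin ligase Neurl3 by 1.00 ± 0.08. Of these and the cytoskeletal genes Fhod1, Neurl3, Niban2 and Rhov had changes of 0.89 to 0.96 without the third untreated array. Lhfpl2 and Tbc1d9 were just under the threshold without replicate 3 at both times. Just outside the threshold lay Ddit4 (0.97 ± 0.15), Pwwp2b (0.97 ± 0.05) and Kcnn4 (0.98 ± 0.06).

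In all, 18 of the 54 called genes were members of the 35 lists, which hold 575 measured genes, and 36 were in none. The called share of the list genes was 3.13%, against 0.271% of all genes, and nothing is read from it because the lists were drawn up with earlier results known. Several programmes that could follow TGF-β1 were not called in any member at 2 h. Of 47 genes of the cell cycle and of S phase and mitosis 0 were called, with a median change of 0.03. Myc, which drives growth and division, changed by -0.14, and the inhibitor genes Cdkn1b and Cdkn2b, known to mediate arrest by TGF-β in other cells, by -0.06 and 0.00. The only member past the p threshold was Ccnd1, cyclin D1, at 0.26 ± 0.04. Of 20 genes of apoptosis and p53 0 were called, although Pmaip1 (Noxa) was lower by 0.70 ± 0.05 and Bmf, another inducer of apoptosis, was higher by 0.66 ± 0.10, both at adjusted p-values below 0.01. Of 18 genes of MAPK feedback 0 were called, and the ERK phosphatase Dusp6 was higher by 0.75 ± 0.09 (adjusted p = 4.6e-05). All 14 measured genes of cholesterol synthesis had a lower mean, with a median change of -0.18 against 0.02 over all genes. How many of all genes had a lower mean is not given here. At an adjusted p below 0.01, 4 of the 14 were lower, beside 1% of all genes, with Fdft1, squalene synthase, at -0.35 ± 0.04. None of the 14 reached the fold threshold, and whether the list moved as a whole was not tested. No gene of the lists for the Atf4 response (21 genes), heat shock and redox (15) and cytokine receptors (22) was called. The called cytokine receptors Il21r and Il17ra (above) are not in that list.

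The interferon and NF-κB lists moved with 1 array. All 21 interferon-stimulated genes had a lower mean at 2 h (median change -0.30) and the 17 NF-κB targets had a median of -0.25, with 0 called in either list and 0 at an adjusted p below 0.01. Without the third untreated array the medians were -0.01 and 0.02. Of 27 chemokines and cytokines 1 was called, Ccl3 (above).

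Markers of blood cell types were measured for what the sorted cells could hold. Of 16 genes of stem and multipotent cells 0 were called, with 0.11 for Cd34, -0.09 for Kit and 0.44 for Flt3. In that list changes ran from -0.66 to 0.44. At an adjusted p below 0.01, 1 member was lower and 0 were higher, beside 1% and 2.26% of all genes. Of 18 markers of CDP and dendritic cells 0 were called, and the factor Irf8 of the same list was higher by 0.54 ± 0.05 (above). Over 8 further lists (Langerhans cells, monocytes, neutrophils, mast cells, erythroid cells, megakaryocytes, B cells, T and NK cells) 2 of 96 genes rose and 1, Ahr, fell, beside 0.226% and 0.0451% of all genes, with a median change of -0.01. The Langerhans cell marker Cd207 (langerin) was dim at 6.1 and changed by 0.04, and Epcam by -0.01. The 10 Langerhans cell genes changed by -1.11 to 0.75. Of these 1 was higher and 1, Ahr, lower at an adjusted p below 0.01, beside 2.26% and 1% of all genes.

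Cxcr2, the chemokine receptor that marks neutrophils, rose from 10.24, 10.21 and 9.51 to 11.51, 11.27 and 11.00 (1.27 ± 0.11, adjusted p = 3.45e-06), 1 of 17 genes of the neutrophil list. The other 16 changed by -0.13 to 0.10. The mean level of the list was 10.84, 11.36 and 11.55 on the untreated arrays and 10.94, 11.38 and 11.61 at 2 h, and it followed the replicate number and not the treatment. Granule genes such as Elane, neutrophil elastase, were bright at both times (13.74 at 0 h). F2r was 1 of 7 megakaryocyte genes, and Pf4 of that list changed by 0.05. The B cell and T and NK lists had mean levels of 7.05 to 7.12 and 6.91 to 6.95. The part of other cell types in the changes was not tested. In such bulk arrays fewer cells of a type and less RNA per cell cannot be told apart.

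The later MPP arrays show what followed. These comparisons share the untreated arrays with the 2 h comparison, so the levels are set side by side. Of the 45 rises 13 had their highest mean level at 2 h, 1 at 4 h, 4 at 8 h, 9 at 12 h and 18 at 24 h, and 17 had reached 90% of their largest change by 2 h. The 45 were called for their level at 2 h, which favours both counts at 2 h. Some led by little there, such as Skil with 10.895 at 2 h and 10.888 at 12 h. Spsb1 stood at 8.70 at 0 h and at 11.44, 11.19, 11.32, 11.27 and 11.33 at 2, 4, 8, 12 and 24 h. Ski stood at 9.97 and then at 11.45, 11.48, 11.50, 11.47 and 11.39. Skil and Smad7 also lay within 0.26 of their 2 h level at each later time. Spsb1 and Ski did so too.

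Others had only begun. Chad stood at 7.15, 9.07, 9.83, 10.99, 11.50 and 12.04 over the 6 times, Kcne3 at 7.17, 9.32, 9.63, 10.20, 10.43 and 10.66, and Tfr2 at 8.06, 9.16, 9.53, 10.26, 10.40 and 10.66. Each was higher at every step. Another kind was highest at 2 h. Rhov stood at 7.50 and 8.61 at 0 and 2 h and was back at 7.68 at 24 h. Niban2 went from 10.40 to 11.50 and then to 10.61, and Sipa1l2 from 8.30 to 9.60 and then to 8.91.

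Among the falls Ednrb went on from 7.48 at 2 h to 6.87 at 4 h and 6.64 at 24 h. Rnd3 was lowest at 2 h (7.65) and lay at 8.07 to 8.20 later. Ahr stayed at 8.15 to 8.42 until 12 h and was at 9.15 at 24 h, against 9.26 untreated. The untreated mean of Ahr carries the wide spread given above.

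**Figure D4:**
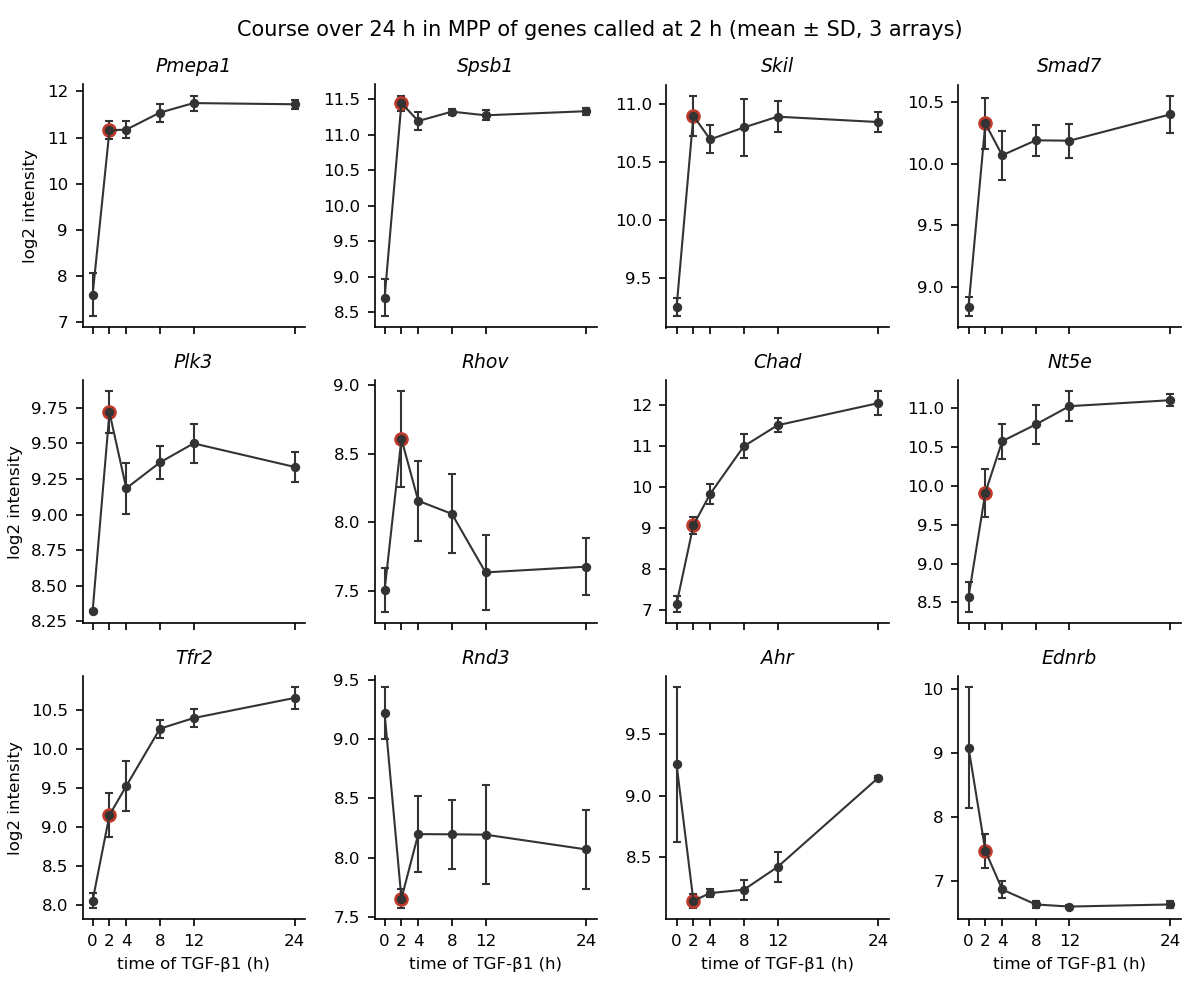
Log2 intensity (y axis, mean ± SD of 3 arrays) of 12 genes called at 2 h in MPP over the 6 times of TGF-β1 (x axis, h), with the 2 h point in red. Pmepa1, Spsb1, Skil and Smad7 had most of their rise by 2 h, Chad, Nt5e and Tfr2 went on rising to 24 h, and Rhov and Plk3 were highest at 2 h. The y axes differ between panels.

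The step from 2 h to 4 h was tested on its own, with the 2 h arrays shared by both steps. Only 1 gene of all was called (0.00502%), Vcan, the matrix proteoglycan versican, and it was not among the 54. Vcan was at 11.97, 12.59 and 12.06 at 2 h, where its change from 0 h was -0.47 ± 0.15 (adjusted p = 0.0902), and then fell by 1.14 ± 0.15 to a mean of 11.06 at 4 h (adjusted p = 0.00235). It was at 8.06 at 24 h. The call was lost without the replicate block (adjusted p = 0.733) and without 8 of the 9 sets of arrays left out. At any fold 47 genes changed from 2 h to 4 h (0.236%), and 4 of the 54 were among them. Chad (0.76 ± 0.06), Nt5e (0.66 ± 0.09) and Pald1 (0.54 ± 0.05) rose further, and Plk3 fell back by 0.53 ± 0.07.

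CDP given TGF-β1 for 2 h showed which of these changes are found in a committed progenitor as well. The CDP arrays are other arrays than the MPP arrays. The deviations of same-numbered MPP and CDP arrays from their group means correlated at 0.513, 0.283 and 0.417 at 0 h and at 0.247, -0.011 and 0.0066 at 2 h. Xist lay at 7.04, 13.60 and 13.64 on the untreated CDP arrays, low on array 1 and high on the others, as in MPP. Whether the cell types shared mice, cultures or handling was not tested. In CDP 65 genes were called (0.326%), 53 higher and 12 lower. 31 genes were called in both cell types in the same direction, 27 higher and 4 lower, which is 57.4% of the MPP calls and 47.7% of the CDP calls. None was called in opposite directions, and 53 of the 54 MPP calls had the same sign in CDP, Il1f9 being the exception (0.04 ± 0.10). Il1f9 was dim in CDP, at 6.33 and 6.37, so its sign there says little. Some agreeing signs came with changes within their SE, such as 0.06 ± 0.08 for C5ar2. The share of all genes with the same sign is not given here.

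Several of the largest changes were also found in CDP, and others were smaller there. Pmepa1 rose by 3.80 ± 0.23 in CDP, with a difference from MPP (CDP minus MPP) of 0.23 and a 95% interval from -0.35 to 0.82. For Skil the difference was 0.26 (-0.06 to 0.59), for Ski 0.17 (-0.06 to 0.41) and for Smad7 -0.06 (-0.33 to 0.21). Gem fell by 1.87 ± 0.22 in CDP, a difference of 0.00 (-0.54 to 0.55). Spsb1 rose by 2.31 ± 0.12 in CDP (difference -0.43, -0.76 to -0.11, adjusted p = 0.358) and Kcne3 by 1.39 ± 0.17 (difference -0.77, -1.21 to -0.32, adjusted p = 0.138). Spint1 and P2ry6 changed by 0.94 ± 0.23 and 0.94 ± 0.14 in CDP, where neither was called. Their differences were -0.85 (-1.55 to -0.15, adjusted p = 0.434) and -0.74 (-1.08 to -0.40, adjusted p = 0.0403). The intervals of these 4 genes lay below 0 before adjustment over all genes. No difference of these genes was called, which does not show that the cell types respond alike.

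The difference of the responses was tested by the interaction contrast, and 6 genes were called (0.0301%), 2 of them among the 54. Lax1 rose by 1.46 in MPP and changed by 0.18 ± 0.10 in CDP, where it stood at means of 6.99 and 7.18 (difference -1.28, 95% interval -1.56 to -0.996, adjusted p = 1.69e-05). Tfr2 rose by 1.10 in MPP and changed by 0.08 ± 0.10 in CDP, at 7.18 and 7.26 (difference -1.01, -1.29 to -0.73, adjusted p = 0.000352). Both genes were dim in CDP at both times. At any fold 22 genes of all differed (0.11%), 4 of them among the 54. The others were C5ar2 (difference -0.95, adjusted p = 0.00228), at 8.63 and 8.69 in CDP, and Tgfbr1.

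Tgfbr1 went the other way. It started at a mean of 10.21 in MPP and 10.24 in CDP, and reached 11.31 and 12.13. The rise was 1.09 ± 0.07 in MPP and 1.89 ± 0.09 in CDP (difference 0.80, 0.57 to 1.03, adjusted p = 0.000613). On these arrays its mean thus rose from about the same level to a higher one in CDP. The difference lay under the fold threshold and was not called. It was not followed under the alternative settings.

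The other 4 genes with a called difference were not called in MPP. Cpd, carboxypeptidase D, was higher in MPP by 0.90 ± 0.08 and rose by 1.97 ± 0.14 in CDP (difference 1.07, adjusted p = 0.00305). Kcnj2, an inward rectifier potassium channel, was lower in MPP by 0.71 ± 0.10 and changed by 0.30 ± 0.11 in CDP (difference 1.01, adjusted p = 0.00274). The kinase Sik1 changed by -0.19 ± 0.07 in MPP and fell by 1.32 ± 0.08 in CDP (difference -1.13, adjusted p = 6.12e-06). Klri2, a lectin-like receptor, lay at 5.37 to 5.41 on the MPP arrays of 0 h and 2 h, near the lower end of the scale, and fell by 1.06 ± 0.12 in CDP (difference -1.08, adjusted p = 7.68e-05). With replicate 3 left out in both cell types 0 of the 6 were called, and with only the arrays of 0 h and 2 h in the fit 0 were called.

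**Figure D5:**
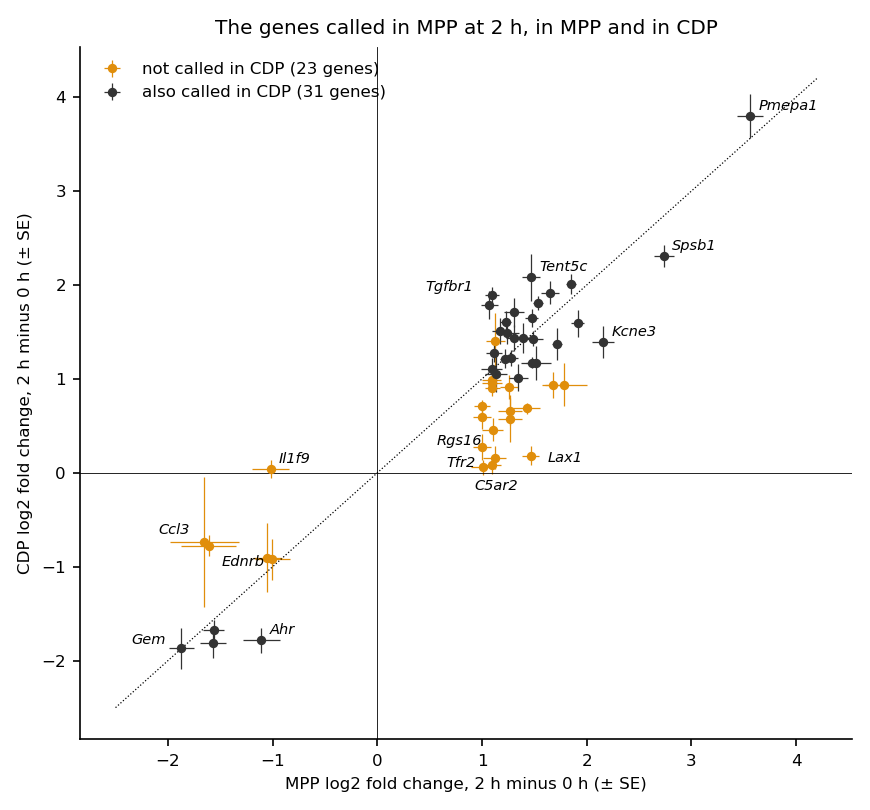
Log2 fold change (2 h minus 0 h) of the 54 genes called in MPP, in MPP (x axis) and in CDP (y axis), with SE bars on both. Black points (31 genes) were also called in CDP, orange points (23 genes) were not, and the dotted line is equality. Pmepa1 and Gem lie near the line, and Lax1, Tfr2, C5ar2 and Rgs16 lie near 0 in CDP.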

How the data were processed

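Genome-wide RNA was measured on Affymetrix Mouse Gene 1.0 ST arrays. The deposited table gives a log2 intensity for each probe set on each array, which the authors made with Affymetrix Power Tools and RMA (background correction, quantile normalization and summary of probes, per the submitters' processing notes, versions not given). The paper describes another probe summary (FARMS) for its own tests. Since RMA gives every array 1 distribution, a change is measured against the rest of the array, and dim genes show compressed changes. Precision is limited by having 3 arrays per group. The labels' protocol gives 6 h for the time that the sample titles give as 8 h, and names another RNA kit than the study's methods.

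The table holds 35556 probe sets, of which 21789 carry 1 gene symbol, 1621 several and 12146 none. Probe sets with 1 symbol were tested. For the 999 genes with more than 1, the one with the highest mean over 36 arrays was kept, which left 19938 genes. None of the called genes had a second probe set. limma 3.58.1 in R 4.3.3 was fitted to the 18 arrays of a cell type with time and replicate number as factors, and to all 36 arrays with replicate within cell type as a block for the difference of responses. Calls needed a Benjamini-Hochberg adjusted p below 0.01 and a log2 change of at least 1. Tests were two-sided and adjusted over all genes, and the script was tested on simulated data. The replicate number was kept as a block because same-numbered MPP arrays deviated together (lowest correlation 0.189 over all times, 0.300 to 0.604 between 0 h and 2 h). Replicates are biological by the study's account. The labels do not say that they were separate cultures, so p-values measure the spread between these arrays.

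The arrays, gene lists and genes were chosen with earlier results of these data known. Genes were named by a rule: the 25 largest rises and every fall, any other called gene, members of the TGF-β lists, called members of the other lists and up to 4 members of a list without a call, the 3 genes on each side of the fold threshold, and up to 6 genes each way of the difference and of the 4 h step. Of 650 list entries 604 were measured. Promoters came from RefSeq (GRCm38.p6). Alternatives were the block, the arrays in the fit, limma settings, a filter on dim genes, the probe set rule, the scaling and leaving out arrays.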

Additional observations from a re-analysis of the deposited data

Results flagged for a closer look

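The 2 h response differed between the cell types, by the interaction test, for 6 genes. On the log2 scale the CDP change minus the MPP change was 1.07 for Cpd, 1.01 for Kcnj2, -1.08 for Klri2, -1.28 for Lax1, -1.13 for Sik1 and -1.01 for Tfr2. In MPP Lax1 and Tfr2 were called, and the other 4 were not.

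Calls were also found among probe sets outside the gene comparisons. Of 12146 probe sets with no gene symbol in the platform annotation, 20 were called higher and 1 lower at 2 h, in the same fit. Of the 20, 19 had IDs below 10344624, the lowest ID that carries a symbol. They were 0.287% of the 6617 probe sets in that range, near the 0.226% of genes called higher. Among the other 5529 probe sets without a symbol 0.0362% were called, in either direction. The largest rises were those of probe sets 10342889 (1.56 ± 0.14, adjusted p = 9.69e-05) and 10342299 (1.47 ± 0.15, adjusted p = 0.000341), and 10351206 fell by 1.61 ± 0.12 (adjusted p = 2.1e-05). The 19 were called on the 0 h and 2 h MPP arrays, so their rise there is no further result. Their mean level was 9.22, 9.11 and 8.79 on the untreated MPP arrays and 10.49, 10.35 and 10.07 at 2 h. It was 10.33 at 4 h and 10.70 at 24 h in MPP, and it went from 9.17 at 0 h to 10.92 at 2 h in CDP. What these probe sets measure is not given in the sources used here.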

How the results depend on the processing

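The count of 54 genes at 2 h stayed within 1.5 times under all 18 alternatives. 32 genes (30 higher, 2 lower) kept their call under every one, 22 lost it under at least 1, and 0 reversed. With only the 6 arrays of 0 h and 2 h in the fit 38 genes were called, all among the 54. Leaving out arrays gave 40 to 62, the lowest without replicate 3. At any fold the 451 higher and 200 lower genes became 70 and 21 with only the 6 arrays, 216 and 49 without the replicate block, 157 and 28 without replicate 1, 232 and 45 without replicate 2, and 300 and 119 without the third treated array. The 200 became 133 with all 36 arrays in the fit, and 124 and 128 without the first and the second treated array.

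Without the replicate block 50 genes were called at 2 h, the calls lost being those of Ccl3, Cd28, Il1f9 and Plod2, and 53 in CDP, 4 for the difference of responses (Kcnj2 and Tfr2 lost) and 0 for 4 h minus 2 h (main value 1). The 1 call of 4 h minus 2 h became 2 with only the arrays of these times and 2 with all 36 arrays, and 0 to 1 when arrays were left out. It was kept only without the second 4 h array. In CDP 39 genes were called with only the arrays of 0 h and 2 h (main value 65), and leaving out arrays gave 47 to 80. For the difference of responses (main value 6) the count was 0 with only the arrays of 0 h and 2 h. It was 0 to 10 when arrays were left out: 0 without replicate 3, 2 without replicate 1, 3 without the third untreated CDP array or the third treated MPP array, and 10 without the first treated CDP array. Among the called genes of the MPP 2 h, 4 h minus 2 h and difference results, 0 directions reversed. The directions of the CDP calls were not followed gene by gene. Among the lists, matrix genes had 1 call in place of 2 and monocyte genes 1 in place of 0 without the third untreated array. Without it the chemokine and cytokine list also had 1 call, which was not Ccl3.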
